A study of Mus musculus with 20 samples.

Results

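Kidneys of 10 male (XY) mice were compared, 5 *Pkd2* mutants and 5 controls, out of 20 mice sequenced in the series. They were taken by the litter group named in the labels, which joins sex and litter, and the rule uses no measured value, although the comparison was chosen with earlier results of these data known. The mutants are labelled Pkd2fl/fl; Pax8; Tet-O-Cre +, that is, both *Pkd2* alleles were floxed and a *Pax8* promoter drove the reverse tetracycline transactivator (rtTA), which switches on Cre recombinase under doxycycline (DOX). The controls, labelled Control only, were littermates of the same C57BL/6 strain that each lacked either the rtTA or the Cre transgene, and the labels do not say which. Mutants and controls alike received DOX at 50 mg per kg daily from postnatal day (P) 27 to P29, and kidneys were taken at P125. The *Pax8* promoter acts in all tubule segments but not in vessels, glomerular tufts or immune cells, so those cells were not targeted. Littermates fell into 3 litters, which are lettered A to C. Litter A held 3 controls (MC1, MC2 and MC3) and 2 mutants (MM1 and MM2), litter B held 1 control (MC4) and 2 mutants (MM3 and MM4), and litter C held 1 control (MC5) and 1 mutant (MM5). These mouse numbers are not the study's.

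*Pkd2* encodes polycystin-2, a cation channel that works together with polycystin-1, the product of *Pkd1*, in the primary cilium of the tubule cell. When tubule cells lose either protein, tubules widen into cysts, and cystic kidneys are known for dividing tubule cells, markers of tubule injury, scar matrix and infiltrating macrophages, together with loss of specialised transport. When the gene is deleted after the kidney has matured, cysts appear only after a long delay.

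Whole-kidney RNA was sequenced, 1 library per mouse. The deposited table gave whole-number counts for 24411 gene symbols, and the 10 libraries summed to between 12726655 and 19324073 counts with 16776 to 17116 genes detected. Levels are given here as CPM, counts scaled to a common library size by the TMM method, always in the order MC1 to MC5 and MM1 to MM5. CPM is not corrected for gene length, so levels are compared between mice and not between genes. *Xist*, expressed from an inactive X chromosome, was at most 0.420 CPM in these mice, and the Y-linked *Ddx3y* lay between 71.6 and 98.5 CPM, as the label male requires. Kidney was checked by its segment genes, since the proximal tubule transport list summed to 22593 to 23814 CPM in controls and 17429 to 24487 CPM in mutants. Pairs of mice within a group differed by far more than counting noise, with a chi-square of 5.48 to 54.5 per degree of freedom, so no library had been entered more than once.

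Mutant kidneys were larger for body weight in all 5 mice. KBW, the given kidney weight as a percentage of body weight, was 0.649, 0.678, 0.599, 0.641 and 0.896% in controls and 2.15, 1.22, 1.79, 1.54 and 1.71% in mutants. The groups did not overlap, and MC5 was the highest control and MM2 the lowest mutant. The means were 0.692% ± 0.117 (SD, n = 5) and 1.68% ± 0.338 (SD, n = 5), a difference of 0.989 percentage points (two-sided exact permutation test, p = 0.00794). With 252 ways to split 10 mice 5 against 5, no smaller p is possible. Within litters A, B and C the mutants exceeded the controls by 1.04, 1.03 and 0.810 percentage points.

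*Pkd2* itself was lower in every mutant. It lies on chromosome 5 (GRCm38, chr5:104459450-104505819, plus strand), and the genotyping primers of the study's methods are named for exons 11 to 13, the floxed stretch, whereas the counts cover the whole gene. *Pkd2* stood at 261, 285, 237, 318 and 289.6 CPM in controls and at 105, 118, 104, 126 and 113 CPM in mutants. No mutant reached the lowest control, and the mutants lay close together (log2 fold change -1.32 ± 0.08 SE, adjusted p = 2.2e-05). The mean fell to 0.408 of that of controls, from 278 ± 30.8 to 113 ± 9.05 CPM (SD, n = 5 each). The remainder was not assigned to a cell type, and in whole-kidney RNA fewer cells of a type and less RNA per cell cannot be told apart, for *Pkd2* and for every other gene. *Pkd1* gave 37.3, 46.7, 26.8, 42.5 and 39.0 CPM in controls and 35.8, 35.8, 35.9, 54.4 and 41.0 CPM in mutants, which overlapped (log2 fold change 0.02 ± 0.15 SE, adjusted p = 0.96). Of the nearest tested genes on either side of *Pkd2*, *Zfp951* overlapped between the groups (log2 fold change 0.54 ± 0.34 SE, adjusted p = 0.29), and *Spp1*, which encodes the secreted protein osteopontin, rose and is described with the injury genes.

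**Figure D1:**
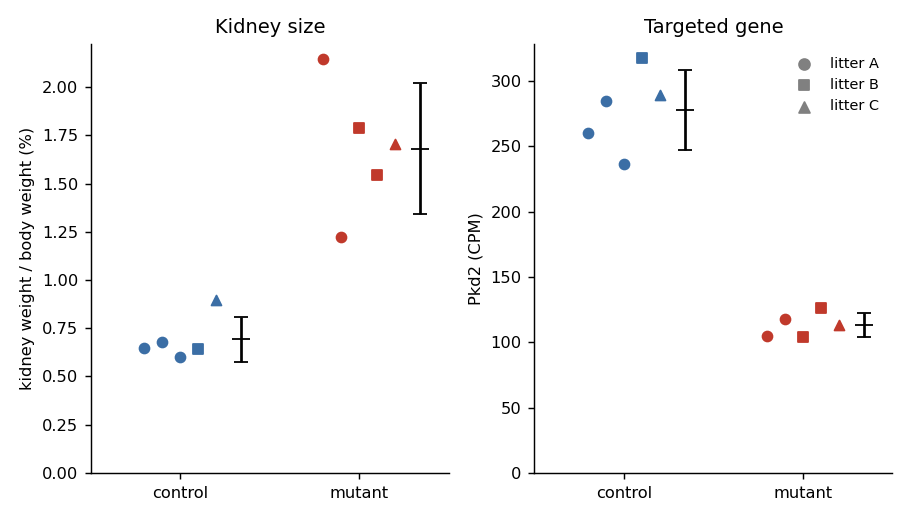
Kidney weight as a percentage of body weight (left) and Pkd2 in CPM (right) in each of the 5 male controls and 5 male mutants, with symbols for litters A, B and C and bars for the mean ± SD. KBW is above 1.2% in all mutants and below 0.9% in all controls, and Pkd2 is at or below 126 CPM in mutants and at or above 237 CPM in controls.

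After genes with few counts were left out, 14010 genes were tested with litter as a covariate, and 1185 (8.46%) were differentially expressed genes (DEGs) at an adjusted p under 0.01, the threshold of the study. Of these DEGs, 736 (5.25% of the tested genes) were higher and 449 (3.20%) lower in mutants. Rises were also larger than falls. The median log2 fold change was 1.12 over the 736 rises and -0.64 over the 449 falls, against -0.00 over all tested genes, and 132 rises but 4 falls reached 2 on the log2 scale. The rises began from a low level, with a median of 8.29 CPM in controls against 42.2 CPM for the falls and 23.7 CPM for all tested genes. Together the raised genes took 2.25 to 2.41% of the counts in controls and 3.31 to 5.75% in mutants, and the lowered genes took 5.92 to 6.17% and 3.56 to 4.48%. The CPM of 1083 of the 1185 DEGs did not overlap between the groups, where 8.27% of all tested genes had every mutant above every control and 7.13% every mutant below. All 1185 had the same sign within litters A, B and C, as had 54.7% of all tested genes. The DEGs were chosen on these same mice with litter in the fit, so the overlap and the signs are given as a description.

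The number of DEGs depended on which mice were in the fit. Leaving out 1 control at a time gave 518, 585, 477, 187 and 738 DEGs without MC1 to MC5, and leaving out 1 mutant gave 884, 1863, 620, 781 and 758 without MM1 to MM5. MC4 was the sole male control of litter B, so without it the litter term leaves MM3 and MM4 no littermate to be compared with. Litter C held MC5 and MM5 alone among males, so a fit without either likewise leaves the other no littermate to be compared with. Of the 1185 DEGs, 180 were called in each of these 10 fits, 108 of them higher in mutants. DESeq2's Wald test called 2017 genes, 1184 of the 1185 among them.

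**Figure D2:**
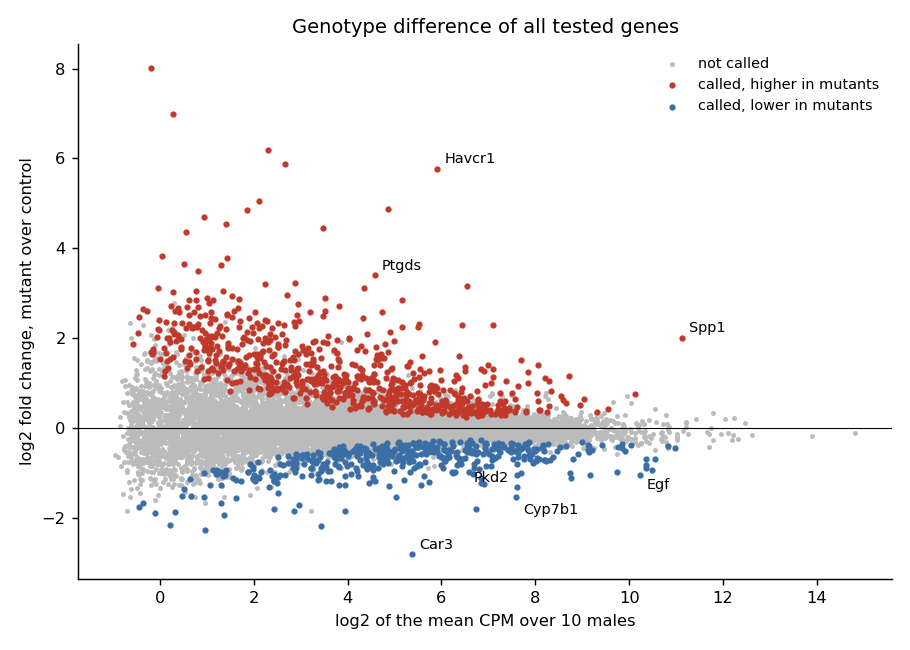
Log2 fold change of mutants over controls against the log2 of the mean CPM over the 10 males, 1 point for each of the 14010 tested genes, with the 736 called rises in red, the 449 called falls in blue and all others in grey. The red points reach much farther from 0 than the blue ones, mainly among genes of low and middle level.

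The mutants were not alike in how far they had moved. On the first principal component of the log2 CPM of all tested genes, which held 56.2% of the variance, controls scored -28.6, -29.5, -28.4, -22.5 and -30.8 and mutants 55.2, 6.58, 37.6, 34.8 and 5.69. The groups were apart (difference 55.9, two-sided exact permutation test, p = 0.00794), and MM2 and MM5 lay nearest to the controls. The same order held over the raised DEGs, which were chosen on these mice and are given as a description. The median log2 shift of the 736 raised genes from the control mean was 1.57 in MM1, 0.705 in MM2, 1.24 in MM3, 1.18 in MM4 and 0.624 in MM5, and that of the 449 lowered genes was -0.82, -0.49, -0.74, -0.64 and -0.56. MM1 had the largest kidney for its weight and MM2 the smallest among mutants, but MM5, with the smallest shift of raised genes, had a KBW of 1.71%, above that of MM4. *Pkd2* in MM2 and MM5, at 118 and 113 CPM, lay between the levels of MM1 and MM4, at 105 and 126 CPM. For the raised genes the median SD of log2 CPM was 0.213 among controls and 0.453 among mutants, and for all tested genes it was 0.149 and 0.190.

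**Figure D3:**
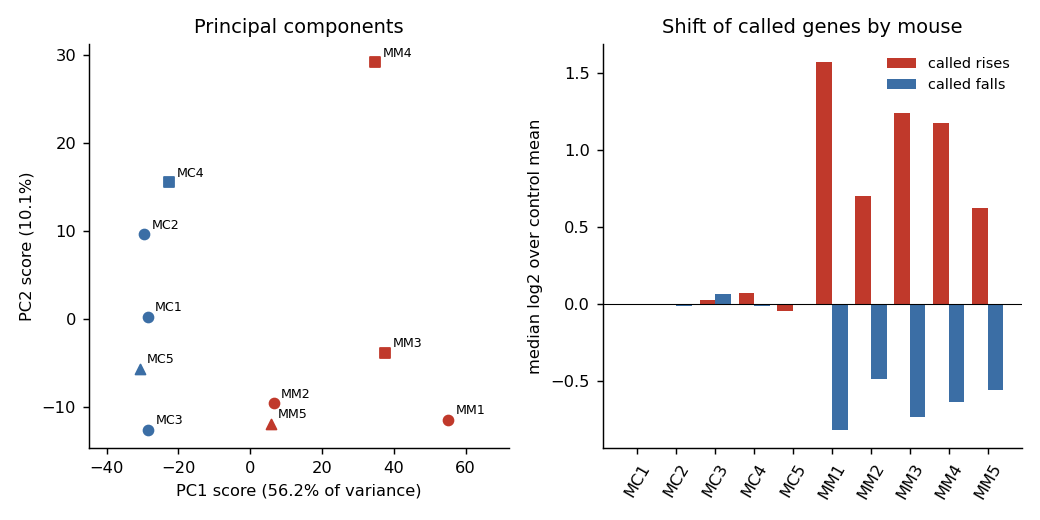
Scores of the 10 mice on the first 2 principal components of log2 CPM (left, circles for litter A, squares for B and triangles for C) and the median log2 shift from the control mean of the called rises and falls in each mouse (right). Controls (blue) cluster at PC1 scores of -30.8 to -22.5, and MM2 and MM5 lie between them and MM1, MM3 and MM4.

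Genes were then grouped into 20 lists by function or nephron segment, with 104 called rises and 50 called falls among their members (a gene in more than 1 list counted in each). Counts in a list are to be read against the 5.25% of all tested genes called higher and the 3.20% called lower. Counts at an unadjusted p under 0.05 are to be read against 4720 of the 14010 tested genes, both directions together. In these counts a gene rose or fell only if it was called, and members that were not called may still lean the same way. A value in parentheses after a gene is its log2 fold change of mutants over controls. Of the 63 named genes that were called, 27 passed in each of the 10 fits without 1 mouse.

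Genes of tubule injury rose, some of them steeply. Of 25 tested members 13 rose and none fell, with a median log2 fold change of 1.11. *Havcr1*, which encodes the injury marker KIM-1 of the proximal tubule, stood at 2.52, 2.43, 3.91, 0.777 and 1.97 CPM in controls and 329.7, 35.7, 109.9, 78.4 and 34.5 CPM in mutants (log2 fold change 5.77 ± 0.62 SE, adjusted p = 0.0004). *Lcn2*, the gene of neutrophil gelatinase-associated lipocalin, gave 0.910, 1.09, 2.41, 1.94 and 2.52 CPM in controls and 124, 21.3, 56.3, 61.6 and 16.9 CPM in mutants (log2 fold change 4.86 ± 0.57 SE, adjusted p = 0.00057). Neither gene overlapped between the groups, both were highest in MM1, and both were lowest among mutants in MM2 and MM5. *Krt20*, a keratin of injured epithelium, had 3 counts or fewer in each control and 49 to 382 in mutants, where it stood at 20.7, 3.18, 11.5, 9.96 and 3.62 CPM. Against the floor of 3 counts per library its mean was at least 47.8-fold higher. *Spp1* added more CPM than any other DEG, with 924, 772, 963, 899.7 and 792 CPM in controls and 8409, 1754, 3324, 2846 and 1629 CPM in mutants (log2 fold change 2.01 ± 0.36 SE, adjusted p = 0.0037), with MM1 far above the other mutants. *Sox9*, a transcription factor of repairing tubules (2.39, adjusted p = 0.0079), *Vcam1*, an adhesion molecule of tubule cells that fail to repair (2.85, adjusted p = 0.00078), and *Cd44*, a hyaluronan receptor (2.49, adjusted p = 0.0019), also rose. Among the 12 members that did not pass were *Krt19* (1.67, adjusted p = 0.019), *Vim* (0.94, adjusted p = 0.017) and *Clu* (0.71, adjusted p = 0.085). The count for the list was 5 without MC4, 6 without MC1, MC2 or MC3 and 21 without MM2, and *Spp1* missed the threshold without MC1, MC2, MC3 or MC4 (adjusted p up to 0.02).

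A further 3 genes that rose belonged to none of the lists. *Spaca7*, named for the sperm acrosome, had at most 1 count in any control and 13 to 109 counts in mutants, so its mean in mutants was at least 11.8-fold higher on the same floor. *Il1f6*, the gene of the cytokine interleukin-36 alpha, was at 0 counts in all 5 controls and at 12 to 82 counts in mutants, at least 8.63-fold higher. *Dio2*, the deiodinase that activates thyroid hormone, went from 0.0700, 0.364, 0, 0.466 and 0.123 CPM in controls to 32.1, 1.43, 12.7, 14.5 and 2.07 CPM in mutants (log2 fold change 5.88 ± 0.91 SE, adjusted p = 0.0019), with MM2 and MM5 far below the other mutants. It missed the threshold without MC4 (adjusted p = 0.012), and *Il1f6* without MC3, MC4 or MM3 (adjusted p up to 0.014).

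*Ptgds*, a prostaglandin D2 synthase, had the smallest adjusted p of all tested genes and a uniform response. It stood at 2.45, 3.70, 4.69, 4.59 and 5.23 CPM in controls and 48.9, 40.6, 44.4, 38.8 and 46.1 CPM in mutants (log2 fold change 3.40 ± 0.15 SE, adjusted p = 1.2e-06). In contrast to *Havcr1* and *Lcn2*, all 5 mutants were at much the same level, and MM5 exceeded MM3. *Ptgds* was named for its adjusted p, which favours genes of small spread, and *Havcr1* and *Lcn2* for the size of their rise. *Ccnd1*, the gene of cyclin D1, which carries cells out of rest, was similarly even at 233, 240.1, 265, 299 and 246 CPM and 613, 497, 747, 521 and 562 CPM (log2 fold change 1.15 ± 0.10 SE, adjusted p = 0.00019).

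**Figure D4:**
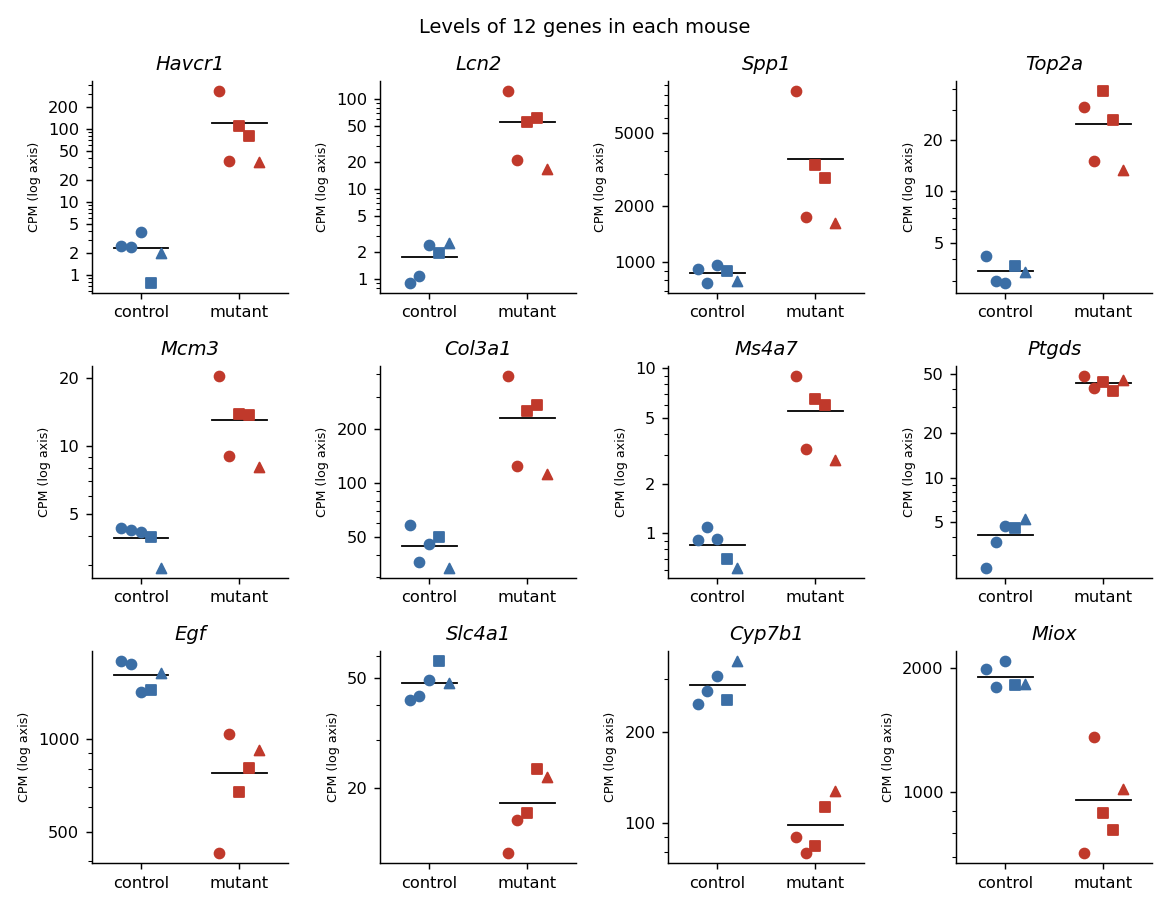
CPM on log axes of 12 genes in each of the 5 controls (blue) and 5 mutants (red), with circles for litter A, squares for B, triangles for C and a line at the group mean. In Ptgds and Cyp7b1 the mutants lie close together, whereas in Havcr1 they run from 34.5 to 330 CPM.

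Nearly every mitotic gene rose. Of 29 tested members of the list of mitosis and chromosome segregation 27 were called higher and none lower, with a median log2 fold change of 2.02, and *Kif20a* (1.00, adjusted p = 0.018) and *Kif23* (0.68, adjusted p = 0.045) were the exceptions. *Top2a*, the topoisomerase that untangles chromosomes, stood at 4.20, 2.98, 2.91, 3.65 and 3.38 CPM in controls and 31.2, 15.1, 38.9, 26.2 and 13.4 CPM in mutants (log2 fold change 2.71 ± 0.25 SE, adjusted p = 0.00021). *Cenpf*, a kinetochore gene, gave 1.96, 1.64, 2.06, 2.57 and 2.09 CPM and 17.1, 7.99, 18.1, 15.7 and 6.70 CPM (log2 fold change 2.52 ± 0.25 SE, adjusted p = 0.00028). *Tpx2*, needed to build the spindle, gave 1.33, 0.911, 1.49, 1.48 and 1.54 CPM and 15.3, 7.73, 19.4, 10.5 and 5.43 CPM (log2 fold change 2.95 ± 0.31 SE, adjusted p = 0.00038). In all 3 genes MM3 was highest and MM5 lowest among mutants, and every mutant was above every control. The list as a whole summed to 65.1 to 82.2 CPM in controls and 153 to 401 CPM in mutants. *Mki67*, the proliferation marker Ki-67, rose by 2.44, *Cdk1*, the kinase that starts mitosis, by 2.09, and *Ccnb1*, its cyclin partner, by 2.33 on the log2 scale. The count of 27 was 11 without MC4 and 17 without MC3.

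Many mitotic promoters hold 2 short elements. The cell cycle genes homology region, TTTGAA, binds the DREAM and MuvB complexes, and CCAAT binds NF-Y. Both were searched on both strands in the 250 bases before the start of each RefSeq gene on GRCm38.p6, and overlapping matches were each counted. Of the mitosis list, 25 genes had a window, and 9 (36.0%) held TTTGAA against 12.8% of 10673 tested genes and 16.0% of all 32851 windows in the table. CCAAT was in 19 of the 25 (76.0%), against 39.9% of tested genes and 33.8% of all windows. The proximal tubule lists, in which 1 and 0 genes rose, held TTTGAA in 6 of 21 transport genes (28.6%) and 3 of 17 enzymes (17.6%) and CCAAT in 7 (33.3%) and 8 (47.1%). The windows of the 4 called mitotic genes with the smallest adjusted p among those that hold TTTGAA are shown as read on the strand of the gene, because they place both elements relative to the start. Capitals mark the matches on either strand, the reverse complements included, and each sequence ends at the base before the start.
Top2a, chr11:99024190-99024439, minus strand: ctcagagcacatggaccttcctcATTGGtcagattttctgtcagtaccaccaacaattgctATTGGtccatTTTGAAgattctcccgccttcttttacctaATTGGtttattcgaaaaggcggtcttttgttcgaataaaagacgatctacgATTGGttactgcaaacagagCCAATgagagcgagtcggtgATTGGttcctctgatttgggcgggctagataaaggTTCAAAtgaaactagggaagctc
Mki67, chr7:135716380-135716629, minus strand: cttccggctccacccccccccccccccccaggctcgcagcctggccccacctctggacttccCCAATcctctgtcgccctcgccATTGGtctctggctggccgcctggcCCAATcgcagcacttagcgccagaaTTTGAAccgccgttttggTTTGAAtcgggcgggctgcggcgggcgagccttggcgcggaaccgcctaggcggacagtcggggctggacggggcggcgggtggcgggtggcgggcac
Prc1, chr7:80294226-80294475, plus strand: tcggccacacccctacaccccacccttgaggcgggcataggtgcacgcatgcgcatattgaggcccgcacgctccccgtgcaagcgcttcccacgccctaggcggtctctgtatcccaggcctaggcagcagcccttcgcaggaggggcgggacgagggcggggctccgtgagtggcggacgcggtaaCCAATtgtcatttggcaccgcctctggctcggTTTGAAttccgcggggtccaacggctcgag
Ube2c, chr2:164769679-164769928, plus strand: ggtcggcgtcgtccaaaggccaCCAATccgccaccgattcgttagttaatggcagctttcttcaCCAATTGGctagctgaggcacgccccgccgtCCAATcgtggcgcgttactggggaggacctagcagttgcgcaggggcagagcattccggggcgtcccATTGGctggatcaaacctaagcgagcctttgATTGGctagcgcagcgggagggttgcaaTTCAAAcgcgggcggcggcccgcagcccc

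The TTTGAA match nearest to the start began 23 bases before it in *Top2a*, 98 in *Mki67*, 30 in *Prc1*, a gene of the spindle midzone, and 29 in *Ube2c*, which marks cyclins for destruction. Of these, *Prc1* rose by 2.35 and *Ube2c* by 2.25 on the log2 scale. A match is a run of letters and was not tested as a binding site. Over all DEGs the shares were nearer to those of tested genes, with TTTGAA in 103 of 550 raised genes that had a window (18.7%) and 40 of 337 lowered ones (11.9%), and CCAAT in 41.8% and 37.7%.

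Genes of DNA replication rose in part. Of 29 tested members 13 rose and none fell, with a median of 0.66. The log2 fold change was positive in 28 and negative in 1, and 22 had an unadjusted p under 0.05. *Mcm3*, a subunit of the replicative helicase, stood at 4.34, 4.25, 4.19, 3.97 and 2.89 CPM in controls and 20.5, 9.09, 14.0, 13.8 and 8.09 CPM in mutants (log2 fold change 1.74 ± 0.21 SE, adjusted p = 0.0006), without overlap. The other helicase subunits rose as well, *Mcm5* by 1.48, *Mcm2* by 0.88, *Mcm4* by 0.82, *Mcm6* by 0.75 and *Mcm7* by 0.55, as did the loader *Cdc6* (1.94, adjusted p = 0.0046) and the ribonucleotide reductase subunits *Rrm1* (1.04) and *Rrm2* (1.66). *Tyms* (0.05, adjusted p = 0.81), *Gmnn* (-0.02, adjusted p = 0.88) and *E2f2* (0.00, adjusted p = 0.99) were near 0. TTTGAA was in 4 of 23 promoters of the list (17.4%) and CCAAT in 14 (60.9%). The count of 13 was 3 without MC4, 4 without MC1, 6 without MC3, 7 without MC2 or MM1 and 8 without MM3, and *Cdc6* missed the threshold without MC1, MC4, MC5, MM1, MM3 or MM5 (adjusted p up to 0.035). Among cell cycle inhibitors and p53 targets, 3 of 15 tested members rose and none fell. *Cdkn1a*, the gene of p21, gave 6.58, 8.62, 8.59, 8.94 and 6.83 CPM in controls and 48.6, 13.2, 38.4, 40.1 and 14.1 CPM in mutants (log2 fold change 1.83 ± 0.31 SE, adjusted p = 0.0027), and *Cdkn2c*, the gene of p18, gave 11.1, 11.96, 13.3, 12.5 and 11.9 and 26.5, 22.1, 23.3, 19.2 and 20.5 CPM (log2 fold change 0.89 ± 0.10 SE, adjusted p = 0.00056). *Btg2* was the third (0.84, adjusted p = 0.0032), whereas *Mdm2* (-0.09, adjusted p = 0.53) and *Bax* (0.12, adjusted p = 0.47) did not pass. That count was 1 without MC3 or MC4 and 7 without MM2, and *Cdkn1a* missed the threshold without MC3 or MC4.

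Collagen and matrix genes rose in part. Of 29 tested members 14 rose and none fell (median 1.06). The log2 fold change was positive in all 29, and 25 had an unadjusted p under 0.05. *Col3a1*, a fibrillar collagen, stood at 58.5, 36.6, 45.9, 50.0 and 33.8 CPM in controls and 393, 124, 252, 272 and 112 CPM in mutants (log2 fold change 2.29 ± 0.27 SE, adjusted p = 0.00062). *Timp1*, an inhibitor of matrix proteases, gave 0.420, 0.121, 0.355, 0.311 and 0.123 CPM and 19.9, 3.64, 8.79, 6.89 and 2.50 CPM (log2 fold change 5.05 ± 0.55 SE, adjusted p = 0.00041). Both were free of overlap and had MM2 and MM5 as the lowest mutants. *Sparc*, a collagen-binding protein (1.39, adjusted p = 0.0018), *Fn1*, fibronectin (1.92, adjusted p = 0.0012), the basement membrane collagens *Col4a1* (1.04) and *Col4a2* (0.94), the cross-linking enzyme *Lox* (2.59) and *Ltbp2*, a microfibril protein (4.85), rose too. *Col5a2* (0.07, adjusted p = 0.8), *Col6a1* (0.30, adjusted p = 0.27) and *Eln* (0.49, adjusted p = 0.14) did not pass. The count of 14 was 4 without MC4 and 9 without MC1, MC2 or MC3, and *Sparc* missed the threshold without MC4. Of 14 tested genes in the list of pericytes and myofibroblasts, 5 rose, and all 14 had a positive log2 fold change. The list holds ligand genes such as *Pdgfb* and *Tgfb1* beside cell markers, so its count does not stand for these cells alone. *Acta2*, smooth muscle actin, gave 24.7, 18.8, 20.8, 19.8 and 20.5 CPM in controls and 89.2, 35.6, 58.6, 74.7 and 27.3 CPM in mutants (log2 fold change 1.37 ± 0.26 SE, adjusted p = 0.0044), with *Tagln* (1.28, adjusted p = 0.0035), *Pdgfb* (0.79, adjusted p = 0.0043), *Ctgf* (0.82, adjusted p = 0.0056) and *S100a4* (1.34, adjusted p = 0.0046) as the others. *Acta2* missed the threshold without MC1, MC2, MC3 or MC4, *Tagln* without MC1, MC2, MC3 or MC4 and *Pdgfb* without MC1, MC2, MC3, MC4 or MM3. The pericyte receptor *Pdgfrb* (0.55, adjusted p = 0.014) and the fibroblast receptor *Pdgfra* (0.24, adjusted p = 0.32) did not pass. Neither did *Cspg4* (0.35, adjusted p = 0.067) or *Des* (0.09, adjusted p = 0.62). The count of 5 was 0 without MC1, MC3 or MC4, 1 without MC2, 2 without MM3 and 9 without MM2. Of 5 tested smooth muscle markers *Acta2* alone rose, *Myh11* gave -0.74, adjusted p = 0.026, and the markers summed to 116 to 129 CPM in controls and 119.9 to 213 CPM in mutants.

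Most macrophage genes rose. Of 18 tested members 15 rose and none fell, with a median of 1.67. *Ms4a7* stood at 0.910, 1.09, 0.923, 0.700 and 0.615 CPM in controls and 8.99, 3.25, 6.48, 6.01 and 2.77 CPM in mutants (log2 fold change 2.67 ± 0.31 SE, adjusted p = 0.00053), and *Itgax*, the integrin CD11c, gave 2.38, 2.85, 2.20, 3.19 and 1.72 and 13.2, 5.84, 10.9, 10.1 and 4.79 CPM (log2 fold change 1.79 ± 0.23 SE, adjusted p = 0.00078). No mutant overlapped with a control in either gene. *Adgre1*, the F4/80 antigen (1.76, adjusted p = 0.0016), *Itgam*, the integrin CD11b (2.30, adjusted p = 0.0018), the complement genes *C1qa* (1.64), *C1qb* (1.68) and *C1qc* (1.72) and *Mrc1*, a mannose receptor (1.67), rose, whereas *Csf1r* (0.35, adjusted p = 0.028), *Csf1* (1.01, adjusted p = 0.013) and *Cd163* (0.01, adjusted p = 0.99) did not pass. The count was 2 without MC4, 8 without MC3 and 9 without MC1 or MC2. None of 12 tested lymphocyte genes passed in either direction by edgeR, and 1 passed by DESeq2. An unadjusted p under 0.05 was reached by 4 of the 12, near the share over all tested genes (4720 of 14010). *Ptprc*, the CD45 antigen of all leukocytes (0.76, adjusted p = 0.014), and *Cd4* (0.87, adjusted p = 0.052) were among them. The median was 0.50, and the count was 1 without MC5 or MM5 and 2 without MM2. Of the neutrophil markers, *S100a8* (0.35, adjusted p = 0.7) and *S100a9* (0.94, adjusted p = 0.13) were testable and did not pass.

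Chemokine genes leaned upward with 1 exception. Of 17 tested chemokines and receptors 16 had a positive log2 fold change and 1 a negative one, and 7 rose and 1 fell (median 1.21). *Ccl2*, which draws monocytes, gave 0.490, 0.607, 0.284, 0.233 and 0.246 CPM in controls and 10.1, 1.82, 5.61, 3.82 and 1.60 CPM in mutants (log2 fold change 3.63 ± 0.51 SE, adjusted p = 0.0012). *Cxcl10*, an interferon-induced ligand, gave 4.48, 4.07, 5.75, 3.11 and 3.81 and 18.5, 10.6, 17.0, 11.3 and 8.35 CPM (log2 fold change 1.65 ± 0.22 SE, adjusted p = 0.00096). *Cxcl1* (3.05), *Ccl5* (1.40), *Cxcl16* (0.94) and *Cx3cl1* (0.55) were the other raised ligands, and *Ccr2*, the receptor of *Ccl2*, was the raised receptor (1.32, adjusted p = 0.0023). *Cxcl12*, a homing factor of resident tissue, fell, with 190.2, 204, 233, 210.4 and 163 CPM in controls and 113, 152, 142, 158 and 146 CPM in mutants (log2 fold change -0.50 ± 0.11 SE, adjusted p = 0.0082). The count of 8 was 3 without MC4, 5 without MM3 and 14 without MM2, *Ccl2* missed the threshold without MC4 and *Cxcl12* without MC1, MC2, MC3, MC4, MM3 or MM4 (adjusted p up to 0.044).

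**Figure D5:**
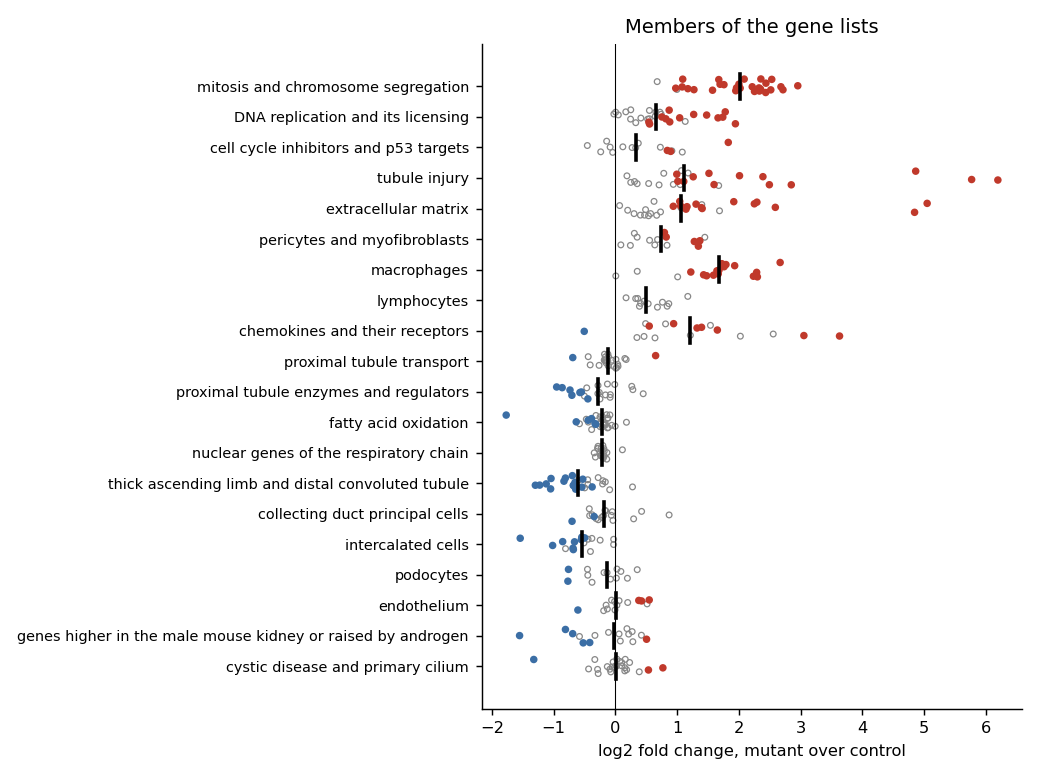
Log2 fold change of every tested member of the 20 gene lists, with called members filled (red higher, blue lower in mutants), others open, and a bar at the median of each list. Mitotic and macrophage genes lie almost wholly to the right, with medians of 2.02 and 1.67, and genes of the thick ascending limb and distal tubule to the left, with a median of -0.60.

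Among nephron segments, the thick ascending limb and distal convoluted tubule had the most falls. Of 25 tested members 15 fell and none rose, with a median of -0.60, and the list summed to 11297 to 12237 CPM in controls and 6774 to 8607 CPM in mutants. *Egf*, the epidermal growth factor made in these segments, stood at 1805, 1767, 1423, 1450 and 1654 CPM in controls and 425, 1045, 676, 807 and 923 CPM in mutants (log2 fold change -1.05 ± 0.20 SE, adjusted p = 0.0049). *Ppp1r1b*, the phosphatase regulator DARPP-32, gave 38.2, 45.4, 44.6, 35.8 and 45.0 CPM and 15.6, 15.9, 16.5, 18.1 and 18.6 CPM (log2 fold change -1.30 ± 0.09 SE, adjusted p = 3.7e-05). *Wnk4*, a kinase that controls the salt transporters, gave 168, 166, 182, 179 and 176 CPM and 95.2, 118, 117, 112 and 108 CPM (log2 fold change -0.68 ± 0.07 SE, adjusted p = 0.00034). All 3 were without overlap. In *Egf* MM1 was the lowest by far, whereas the mutants were close together in the other 2 genes. The transporters of both segments fell, *Slc12a1*, the furosemide-sensitive one, by 0.83 and *Slc12a3*, the thiazide-sensitive one, by 1.04 on the log2 scale, together with the potassium channels *Kcnj1* (-0.68) and *Kcnj10* (-0.65) and the calcium-binding genes *Pvalb* (-1.23) and *Calb1* (-1.12). *Umod*, uromodulin (-0.28, adjusted p = 0.022), *Cldn16* (-0.09, adjusted p = 0.63) and *Trpv5* (-0.20, adjusted p = 0.39) did not pass. The count was 6 without MC4, and *Egf* missed the threshold without MC1, MC2, MC3, MC4, MC5, MM3 or MM5 (adjusted p up to 0.029).

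Intercalated cells, which move acid and base in the collecting duct, gave 9 falls and no rise among 17 tested genes (median -0.54). *Slc4a1*, an anion exchanger, stood at 41.7, 43.2, 49.1, 57.8 and 48.1 CPM in controls and 11.6, 15.4, 16.3, 23.4 and 22.0 CPM in mutants (log2 fold change -1.54 ± 0.13 SE, adjusted p = 0.00016). *Aqp6*, an intracellular aquaporin, gave 37.9, 46.8, 55.7, 56.9 and 48.7 and 32.8, 28.2, 31.7, 34.4 and 29.6 CPM (log2 fold change -0.69 ± 0.10 SE, adjusted p = 0.0018). Neither overlapped, and MM1 was the lowest in *Slc4a1*, though not in *Aqp6*. The ammonia channels *Rhbg* (-0.85) and *Rhcg* (-0.50), the exchanger *Slc4a9* (-1.02) and the proton pump subunits *Atp6v1b1* (-0.55), *Atp6v0d2* (-0.54) and *Atp6v1g3* (-0.68) fell, whereas *Foxi1*, the transcription factor of these cells, gave -0.40, adjusted p = 0.11, and *Car2* -0.03, adjusted p = 0.81. *Aqp6* missed the threshold without MC4. The count of 9 was 1 without MC4, 4 without MC3, MC5 or MM3 and 5 without MC1 or MM5. *Slc4a1* is also the band 3 protein of red cells and is itself among the 7 erythroid markers, so *Alas2* was the sole other marker that could be tested. *Alas2*, the haem synthesis enzyme of red cells, gave 17.3, 21.6, 19.5, 14.2 and 16.4 CPM in controls and 8.61, 3.57, 1.56, 1.82 and 2.82 CPM in mutants (log2 fold change -2.19 ± 0.27 SE, adjusted p = 0.0007). The 7 markers summed to 59.8 to 72.5 CPM in controls and 17.8 to 25.3 CPM in mutants, but *Slc4a1* and *Alas2* make up nearly all of that sum, and the 4 globin genes were listed at 0 counts in all 10 mice. The part of red cells in the fall of *Slc4a1* was not tested.

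Among genes of principal cells, the water- and sodium-transporting cells of the same duct, few passed. Of 17 tested genes 2 fell and none rose (median -0.19). *Scnn1a*, a subunit of the epithelial sodium channel, gave 106, 111, 108, 116 and 102 CPM in controls and 76.0, 85.3, 87.7, 99.5 and 88.5 CPM in mutants (log2 fold change -0.34 ± 0.07 SE, adjusted p = 0.0056), and *Kcne1*, a potassium channel subunit, gave 13.7, 12.4, 18.5, 19.8 and 17.6 and 8.99, 9.67, 11.8, 9.65 and 12.2 CPM (log2 fold change -0.70 ± 0.13 SE, adjusted p = 0.0044). The water channel *Aqp2* gave -0.04, adjusted p = 0.9. The count was 0 without MC4, 1 without MC1, MC2, MC3, MC5, MM1 or MM3 and 4 without MM2, *Scnn1a* missed the threshold without MC1, MC2, MC3, MC4, MM1 or MM3, and *Kcne1* without MC4 or MC5.

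In the proximal tubule, few transport genes passed and enzymes fell in part. Of 25 tested transport genes 1 rose and 1 fell (median -0.12). *Slc13a3*, a carrier of dicarboxylates, gave 564, 508, 628, 554 and 514 CPM in controls and 314, 383, 301, 326 and 367 CPM in mutants (log2 fold change -0.69 ± 0.09 SE, adjusted p = 0.00079). Its relative *Slc13a1*, a sulphate carrier, went the other way, with 428, 427, 459, 380.1 and 367 CPM and 848, 509.6, 691, 553 and 563 CPM (log2 fold change 0.65 ± 0.12 SE, adjusted p = 0.0047), and neither overlapped. The endocytic receptors *Lrp2* (0.01, adjusted p = 0.96) and *Cubn* (-0.12, adjusted p = 0.38), the phosphate carrier *Slc34a1* (-0.26, adjusted p = 0.17) and the glucose carrier *Slc5a2* (-0.44, adjusted p = 0.13) did not pass. This count was 1 without MC1, MC2, MC3, MC4, MC5, MM3 or MM5, and *Slc13a1* missed the threshold without MC1, MC2, MC3, MC4, MC5, MM3 or MM5. Of 21 tested enzymes and regulators 7 fell and none rose (median -0.28). The log2 fold change was negative in 18 and positive in 3, and 13 had an unadjusted p under 0.05. *Miox*, the first enzyme of inositol breakdown, lost the most CPM of all DEGs, with 1986, 1792, 2076, 1820 and 1831 CPM in controls and 713, 1357, 893, 813 and 1020 CPM in mutants (log2 fold change -0.95 ± 0.15 SE, adjusted p = 0.0018), and no mutant reached a control. *Mep1b*, a brush border protease, gave 245, 277, 319, 259.5 and 362 CPM and 137, 191, 159.9, 158 and 249 CPM (log2 fold change -0.70 ± 0.10 SE, adjusted p = 0.0014), and MM5 overlapped with the controls. *Keg1* (-0.45, adjusted p = 0.0058), *Dpep1*, a dipeptidase (-0.73, adjusted p = 0.0034), and *Gamt*, an enzyme of creatine synthesis (-0.57, adjusted p = 0.006), fell as well, whereas *Hnf4a*, a master regulator of the segment, gave -0.01, adjusted p = 0.96. The count of 7 was 0 without MC4, 2 without MC3 and 3 without MC1, MC5, MM3, MM4 or MM5, *Keg1* missed the threshold without MC1, MC2, MC3, MC4, MC5, MM3, MM4 or MM5, and *Miox* and *Mep1b* missed it without MC4 (adjusted p = 0.019 and 0.013).

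The HNF4 element CAAAGTCCA was in the promoter window of 1 of 21 transport genes and 0 of 17 enzymes, against 0.468% of tested genes. It was searched on both strands in the same 250 bases, and the share over all windows was 0.384%.

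Genes of fatty acid oxidation fell in part. Of 31 tested members 6 fell and none rose, and the median was -0.21. The log2 fold change was negative in 30 and positive in 1, and 19 had an unadjusted p under 0.05. *Acadm*, a medium-chain acyl-CoA dehydrogenase, gave 1076, 1133, 1237, 1130 and 1401 CPM in controls and 798, 952, 847, 874 and 1089 CPM in mutants (log2 fold change -0.39 ± 0.07 SE, adjusted p = 0.0051), and MM5 alone overlapped with the controls. *Acsm1*, a medium-chain acyl-CoA synthetase, gave 264, 266, 242, 267 and 287 and 123, 219, 166, 154 and 188 CPM (log2 fold change -0.63 ± 0.13 SE, adjusted p = 0.006), with no overlap. *Cpt1b*, the carnitine transferase better known from muscle, had the largest fall at a low level, from 1.12 ± 0.255 to 0.342 ± 0.161 CPM (SD, n = 5 each; log2 fold change -1.77 ± 0.36 SE, adjusted p = 0.0063). *Ppara*, the receptor that drives the pathway, gave -0.12, adjusted p = 0.65, and *Cpt1a*, the liver and kidney form of the transferase, -0.12, adjusted p = 0.38. The count of 6 was 0 without MC1, MC2, MC3, MC4, MM3 or MM4, 1 without MC5 or MM5 and 3 without MM1, *Acadm* missed the threshold without MC1, MC2, MC3, MC4, MC5, MM3, MM4 or MM5, *Acsm1* without MC1, MC2, MC3, MC4, MC5, MM3, MM4 or MM5, and *Cpt1b* in 9 of the 10 fits (adjusted p up to 0.052). None of 20 nuclear genes of the respiratory chain passed by edgeR, although their median was -0.21, 16 had an unadjusted p under 0.05 and 3 passed by DESeq2. Without MM2 edgeR called 2 of them.

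Outside the tubule, 2 of 13 podocyte genes fell (median -0.13). *Nphs1*, nephrin, gave 22.2, 21.3, 18.9, 19.9 and 14.6 CPM in controls and 8.13, 14.5, 10.97, 14.8 and 9.10 CPM in mutants (log2 fold change -0.77 ± 0.16 SE, adjusted p = 0.0066). It overlapped through MC5, the lowest of the controls, and MM4, and *Synpo* gave 0.03, adjusted p = 0.86. *Nphs1* missed the threshold without MC1, MC2, MC3, MC4, MC5, MM3 or MM5, and the count was 0 without MC1, MC2, MC3, MC4 or MM3 and 1 without MC5, MM1 or MM5. Of 14 endothelial genes 3 rose and 1 fell (median 0.01). *Pecam1*, the adhesion molecule CD31, gave 59.2, 57.0, 45.9, 59.6 and 52.8 CPM in controls and 88.5, 71.8, 76.5, 98.7 and 73.9 CPM in mutants (log2 fold change 0.55 ± 0.10 SE, adjusted p = 0.0039), and *Plvap*, a protein of fenestrated vessels (0.38, adjusted p = 0.0038), and *Eng*, endoglin (0.42, adjusted p = 0.0052), rose too. *Sox17*, a factor of arterial endothelium, fell (-0.61, adjusted p = 0.0079). This count was 0 without MC4, 1 without MC1, MC2, MC5 or MM5 and 2 without MC3 or MM1. *Pecam1* missed the threshold without MC4, MC5 or MM5, *Plvap* without MC1, MC2, MC4, MC5 or MM5, and *Sox17* in 9 of the 10 fits (adjusted p up to 0.03).

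Genes known to be higher in the male mouse kidney or raised by androgen did not move as 1 group. Of 16 tested members 5 fell and 1 rose (median -0.03). *Cyp7b1*, an oxysterol and steroid hydroxylase, stood at 248, 273, 307, 254 and 344 CPM in controls and 89.6, 79.4, 83.9, 113 and 128 CPM in mutants (log2 fold change -1.55 ± 0.11 SE, adjusted p = 2.9e-05). *Akr1c21*, a hydroxysteroid dehydrogenase, gave 1696, 1487, 1806, 1531 and 1661 CPM and 902, 1160, 896, 819 and 1174 CPM (log2 fold change -0.69 ± 0.10 SE, adjusted p = 0.0011). *Gusb*, the androgen-responsive beta-glucuronidase, was the riser, with 44.2, 47.5, 47.6, 43.5 and 61.5 CPM in controls and 58.6, 73.1, 59.8, 80.2 and 74.7 CPM in mutants (log2 fold change 0.50 ± 0.10 SE, adjusted p = 0.0062), and MC5 overlapped with the mutants. *Kap*, the kidney androgen-regulated protein (-0.11, adjusted p = 0.56), did not pass. *Ugt2b37* (-0.81, adjusted p = 0.0054) and *Ugt2b38* (-0.52, adjusted p = 0.0044) belong to a family of near-identical genes, as does *Akr1c21* to a smaller degree, and how reads were shared among copies is not given in the sources used here. The count of 6 was 1 without MC4, 2 without MC3 and 3 without MC1, *Gusb* missed the threshold without MC1, MC2, MC3, MC4 or MM2, and *Akr1c21* without MC4.

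Few other genes of cystic disease and the cilium passed. Of 25 tested members, *Pkd2* among them, 2 rose and 1 fell (median 0.02). *Glis2*, a transcription factor mutated in nephronophthisis, gave 112, 134, 128, 142 and 154 CPM in controls and 253, 205, 259, 204 and 231 CPM in mutants (log2 fold change 0.77 ± 0.10 SE, adjusted p = 0.00077), with no overlap, and *Bicc1*, an RNA-binding protein whose loss causes cysts, rose by 0.54 (adjusted p = 0.0049). *Pkhd1*, fibrocystin (0.39, adjusted p = 0.016), and *Ift88*, a transport protein of the cilium (-0.33, adjusted p = 0.021), did not pass.

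The remaining falls of largest size or loss were of mixed function. *Car3*, a carbonic anhydrase, gave 76.7, 74.9, 46.1, 94.1 and 52.0 CPM in controls and 1.73, 10.8, 4.11, 44.3 and 7.50 CPM in mutants (log2 fold change -2.82 ± 0.57 SE, adjusted p = 0.0066), and MM4, at 44.3 CPM, lay just under the lowest control. Adipose tissue, in which *Car3* is abundant, was followed by its markers, which summed to 57.8 to 128 CPM in controls and 62.1 to 174 CPM in mutants, and none of the 4 tested was called. Their median log2 fold change was -1.39, with *Adipoq* (-1.55, adjusted p = 0.34), *Cidec* (-1.23, adjusted p = 0.36) and *Cfd* (-1.85, adjusted p = 0.27) negative, as for *Car3*, and *Fabp4*, which makes up most of the sum, positive (0.42, adjusted p = 0.093). Their part in the fall of *Car3* was not tested. *Lad1*, an anchoring filament protein, gave 206, 191, 199, 131 and 124.6 and 73.9, 79.1, 63.5, 73.0 and 50.1 CPM (log2 fold change -1.24 ± 0.08 SE, adjusted p = 2.9e-05), and its adjusted p was among the 4 smallest of all tested genes. *Wnt11*, a ligand of the ureteric tip (-2.16, adjusted p = 0.0032), *Ryr2*, a calcium release channel (-1.88, adjusted p = 0.0037), *Baiap3* (-1.94, adjusted p = 0.00098) and *R3hdml* (-2.27, adjusted p = 0.0047) completed the 6 largest falls with *Car3* and *Alas2*. *Klk1*, tissue kallikrein (-0.90, adjusted p = 0.0065), and *Napsa*, an aspartic protease (-0.69, adjusted p = 0.00095), were among the 5 largest losses in CPM with *Miox*, *Egf* and *Keg1*, and *Klk1* too has close relatives in the genome. Among the 5 largest gains beside *Spp1*, *Ccnd1* and *Sparc* were *Hsd17b11*, a lipid droplet dehydrogenase (0.75, adjusted p = 0.0034), and *Serinc3* (0.41, adjusted p = 0.0039). *Car3* missed the threshold without MC1, MC2, MC3, MC4, MC5 or MM5, *R3hdml* without MC1, MC3, MC4, MC5, MM3, MM4 or MM5, *Klk1* without MC1, MC3, MC4, MC5, MM3, MM4 or MM5, *Hsd17b11* without MC1, MC2, MC3, MC4, MC5 or MM5, *Serinc3* without MC1, MC3, MC4, MC5 or MM5, *Ryr2* without MC1, MC2, MC3 or MC4, and *Wnt11* and *Baiap3* without MC4.

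Markers of neighbouring tissues were followed as well. Pancreas markers summed to at most 0.0615 CPM in any mouse, none was testable, and the adrenal markers summed to 4.74 to 6.72 CPM in controls and 3.68 to 5.16 CPM in mutants. Urothelial markers summed to 3.43 to 22.1 CPM in controls and 4.86 to 29.9 CPM in mutants and none of the 5 tested passed. Of 6 tested liver markers *Fga* (1.09, adjusted p = 0.009) and *Fgb* (1.99, adjusted p = 0.0046), fibrinogen chains, rose, and *Alb* (0.30, adjusted p = 0.69) did not pass.

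The genotype difference was also compared with that of the 10 female mice of the series in 1 fit of all 20 mice. No gene of 14820 tested (0% called) differed between the sexes in its genotype effect at an adjusted p under 0.01 by edgeR, with 618 at an unadjusted p under 0.05, and DESeq2 called 19. Without the female mutant FM4, edgeR called 3. For *Cyp7b1*, the male log2 fold change was -1.55 and the female one -0.11 (interaction adjusted p = 0.859), and for *Pkd2* they were -1.31 in the same fit and -0.82 (adjusted p = 1).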

How the data were processed

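The 10 male libraries were analysed from the deposited counts, raw whole numbers for each gene symbol. Per the labels and the study's methods, the authors used fastp 0.23.2 for trimming and STAR 2.7.10b for alignment to mm10. The counting tool, the gene annotation and the strandedness are not given in the sources used here, so overlapping and antisense genes could not be told apart.

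Counts were analysed with edgeR 4.0.16 in R 4.3.3. Libraries were scaled by TMM, filterByExpr dropped genes of low count, and genotype was tested by the quasi-likelihood F-test with litter as a covariate and Benjamini-Hochberg adjustment. A gene was called at an adjusted p under 0.01. The study used DESeq2, and the Wald test of DESeq2 1.42.0 was an alternative. Log2 CPM used a prior count of 2. Values of single mice were compared by exact permutation tests over all 252 splits, which took no account of litter. The sex difference was an interaction term in a fit of all 20 mice. The median SE of a log2 fold change was 0.107, and the part of counting error in it, which is larger for genes of low count, was not computed. Samples of a group are separate mice. The procedure was tested on simulated data.

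The named genes were *Pkd2*, *Pkd1*, the neighbours of *Pkd2*, the 6 largest rises and falls among DEGs of 1 CPM or more over all mice and without overlap, the 4 smallest adjusted p, the 5 largest gains and losses in CPM, DEGs with 3 counts or fewer in every mouse of a group, and per list the 2 smallest adjusted p and the largest rise and fall among DEGs. Of the genes this rule names, 1 is not reported here and is left out of the counts of named genes. The other genes printed were picked from the lists with their values in view. The comparison, the 20 gene lists and the 8 marker lists were chosen with earlier results of these data known. Promoters are from RefSeq (GRCm38.p6), and 10673 of the 14010 tested genes had a promoter window. Of the 24411 symbols, 23194 matched the symbol of a RefSeq gene. Alternatives were DESeq2 size factors, library totals, no filter or at least 10 counts in every male, no litter term, all 20 mice in 1 fit and each mouse left out.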

Additional observations from a re-analysis of the deposited data

Results flagged for a closer look

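Dixon's test for 1 mouse that stands apart from the other 4 of its group was run on 134 sets of values (KBW, the first principal component and the log2 CPM of each named gene, in controls and in mutants), and it marks about 1 set in 20 by chance. It marked 6, all of them among controls. MC5, the control of litter C, accounted for 4. Its KBW was 0.896%, against 0.599 to 0.678% in the other controls. Its log2 CPM was highest in *Hsd17b11* (10.1, against 9.44 to 9.63) and in *Gusb* (5.95, against 5.45 to 5.58). It was lowest in *Mcm3* (1.59, against 2.03 to 2.16). MC3 was highest in *Spaca7* (-2.34, against -2.99 in each of the others), which reflects 1 count against 0. MC2 was lowest in *Tpx2* (0.052, against 0.54 to 0.73). No mutant was marked in any of these values, MM1 included.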

How the results depend on the processing

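All 63 named genes that were called kept their direction under every alternative that gave a value, and those called numbered 48 with all 20 mice in 1 fit, 59 with no litter term and 27 to 61 with 1 mouse left out, the fewest without MC4 and the most without MM2. With at least 10 counts in every male, 12 of them were no longer tested. *Pkd2* was called under every alternative (log2 fold change -1.38 to -1.27 with 1 mouse left out), the KBW difference was 0.873 to 1.10 percentage points and the PC1 difference 50.6 to 61.5 with 1 mouse left out, and neither lost its exact permutation p under 0.05. The number of DEGs was 2017 by DESeq2's Wald test, 690 with all 20 mice in 1 fit and 187 to 1863 with 1 mouse left out. The share of DEGs that were higher was 66.3% on library totals, 65.9% with no filter, 58.5% with at least 10 counts in every male, 70.9% with all 20 mice and 57.2 to 70.9% with 1 mouse left out. The interaction with sex gave 19 genes by DESeq2's Wald test and 3 without FM4. The cause of these differences was not tested.

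Over all lists together, 154 members were called and 40 to 202 with 1 mouse left out. By DESeq2's Wald test the called members were 8 for cell cycle inhibitors, 22 for matrix, 8 for pericytes and myofibroblasts, 1 for lymphocytes, 17 for chemokines, 11 for fatty acid oxidation, 3 for the respiratory chain, 5 for principal cells and 4 for podocytes. With no filter they were 5 for cell cycle inhibitors, 8 for pericytes and myofibroblasts, 1 for lymphocytes and 17 for chemokines, with at least 10 counts in every male 5 for chemokines, and with no litter term 1 for lymphocytes. With all 20 mice in 1 fit they were 3 for pericytes and myofibroblasts, 1 for proximal tubule transport, 4 for proximal tubule enzymes, 0 for fatty acid oxidation, 1 for principal cells, 4 for intercalated cells, 2 for endothelium and 1 for genes higher in males. With 1 mouse left out they ran from 11 to 29 for mitosis, 3 to 15 for replication, 1 to 7 for cell cycle inhibitors, 5 to 21 for tubule injury, 4 to 21 for matrix, 0 to 9 for pericytes and myofibroblasts, 2 to 17 for macrophages, 0 to 2 for lymphocytes, 3 to 14 for chemokines, 1 to 3 for proximal tubule transport, 0 to 7 for proximal tubule enzymes, 0 to 8 for fatty acid oxidation, 0 to 2 for the respiratory chain, 6 to 15 for the thick ascending limb and distal convoluted tubule, 0 to 4 for principal cells, 1 to 12 for intercalated cells, 0 to 3 for podocytes, 0 to 4 for endothelium, 1 to 8 for genes higher in males and 2 to 4 for cystic disease and cilium.

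No paired analysis was possible because the labels give no replicate numbers that join a mutant to a control, and litter, which they do give, is already a covariate. Litter C held 1 mouse of each genotype and litter B 1 control, so litter and mouse cannot be told apart there. At these depths a gene near 1 CPM rests on fewer than 20 counts per library, and 5249 of the 24411 symbols had no count in the 10 males.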

Other observations

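Genes in these paragraphs were chosen after their values were seen, from the 180 that were called in the male comparison and in each of the 10 fits without 1 mouse. *Aldh1a1*, a retinaldehyde dehydrogenase, stood at 7.28, 8.50, 9.52, 13.4 and 7.20 CPM in controls and 35.4, 18.96, 37.6, 42.7 and 27.8 CPM in mutants (log2 fold change 1.71 ± 0.16 SE, adjusted p = 0.00024), and *Aldh1a2*, a related enzyme, at 2.45, 2.37, 2.49, 2.88 and 2.89 and 41.4, 9.87, 22.1, 20.1 and 8.19 CPM (log2 fold change 2.89 ± 0.40 SE, adjusted p = 0.0011). *Stra6*, the cellular receptor for retinol-binding protein, gave 1.82, 1.52, 1.63, 0.622 and 1.72 CPM in controls and 19.02, 9.41, 13.1, 13.2 and 11.01 CPM in mutants (log2 fold change 3.22 ± 0.26 SE, adjusted p = 9.4e-05). Each of these genes was higher in 5 of 5 mutants than in any control, as were 8.27% of all tested genes. They were picked among called genes, so this is given as a description.

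*Pax8*, a transcription factor of the nephron whose promoter also drives the transactivator in this model, was higher in every mutant, with 68.7, 69.0, 66.5, 74.9 and 71.7 CPM in controls and 107, 101, 111, 109 and 99.2 CPM in mutants (log2 fold change 0.57 ± 0.06 SE, adjusted p = 0.00031). That transgene encodes rtTA and not *Pax8*, and whether any of its reads were counted as *Pax8* was not tested. *Tfap2b*, a transcription factor of the distal nephron, and *Esrrb*, a nuclear receptor of the same segments, were lower (-0.59, adjusted p = 0.0011 and -0.56, adjusted p = 0.0018), as was *Pou3f3* (-0.50, adjusted p = 0.00078), a factor needed for the thick ascending limb. Of the carriers of organic anions and dicarboxylates, *Slc22a13* (-0.82, adjusted p = 0.00077), *Slc22a19* (-0.89, adjusted p = 0.00042), *Slc22a26* (-1.10, adjusted p = 0.00052) and *Slc13a2* (-0.77, adjusted p = 0.00082) fell, and the *Slc22a19* and *Slc22a26* genes have close copies in the mouse genome.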
